A study of Mus musculus with 37 samples.

Results

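The genes described here encode the CD94/NKG2 receptors and NKG2D, the lectin-like receptors with which NK cells read MHC class I and stress ligands. They are Klrc1 (NKG2A), Klrc2 (NKG2C), Klrc3 (NKG2E), Klrd1 (CD94) and Klrk1 (NKG2D). These 5 genes were taken by name from the 53700 genes counted, with earlier results of these data known. Uterine NK (uNK) cells were sorted as live CD45+ NKp46+ cells without CD3, CD4, CD8 or high CD11b, among other markers, of pregnant uteri (gestation day 9.5 to 10.5), and were then divided by the inhibitory receptors NKG2A and Ly49C/I. The WT mice were C57BL6 and gave 9 libraries of uneducated cells, which carry neither receptor, 9 libraries of NKG2A+ cells and 6 libraries of Ly49C/I+ cells. The mice labelled NKG2A KO C57BL6 gave 8 libraries of uneducated cells and 5 of Ly49C/I+ cells. Not given in the sources used here are the part of Klrc1 that the KO allele lacks and whether libraries came from separate or pooled mice, so p-values measure the spread between libraries.

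CD94 pairs with an NKG2 chain on the cell surface. With NKG2A it forms a receptor that inhibits through phosphatases, and with NKG2C or NKG2E it forms a receptor that activates through the adaptor DAP12. The ligand of these heterodimers in the mouse is Qa-1, an MHC class Ib molecule that presents leader peptides of other MHC class I molecules. NKG2D is a separate homodimer that activates through the adaptors DAP10 and DAP12 and binds the RAE-1, H60 and MULT-1 ligands of stressed cells. In the uterus of pregnancy, NKG2A and Ly49 receptors are studied as the inhibitory receptors through which uNK cells become educated, that is, gain full function through recognition of self MHC.

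All 5 genes lie in the NK gene complex on chromosome 6. In the GENCODE M21 annotation of GRCm38 they fill 87.2 kb, in the order Klrd1 (chr6:129591782-129598775), Klrk1 (chr6:129610323-129623864), Klrc3 (chr6:129639064-129643337), Klrc2 (chr6:129647496-129660689) and Klrc1 (chr6:129666015-129678973). Klrd1 is on the plus strand and the other 4 on the minus strand. No exon of another gene overlaps their exons. The 3 Klrc genes are close copies, and 38.6% of the 50-base stretches of Klrc1 transcripts, 16.3% of those of Klrc2 and 36.3% of those of Klrc3 occur in a transcript of another gene, always another Klrc gene. None of the stretches of Klrd1 or Klrk1 does so. Counts of the 3 Klrc genes are therefore uncertain where reads could be split between them, and each comparison was also made on their sum.

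The sequences before the Klrc genes are shown because a window of Klrc2 was close to that of Klrc3, while that of Klrc1 was not. In the RefSeq promoter windows (GRCm38.p6), which hold 250 bases before and 50 after a start of the gene, Klrc2 and Klrc3 were identical at 296 of 301 aligned positions (98.3%), whereas Klrc1 matched Klrc2 at 51.4% and Klrc3 at 52.3%. Of the 5 genes, 4 were matched in the RefSeq table. Klrk1, which is not a Klrc gene, matched Klrc2 at 49.6% and Klrc3 at 49.0%, near the values of Klrc1. Klrc2 has 2 windows there, of which the one more like that of Klrc3 was taken. The 98.3% thus holds for a window chosen for its likeness, and the other window is not described here. Of the chosen window, only 117 bases lie before the annotated Klrc2 gene. The bases below lie before the first annotated start of each gene and are written 5′ to 3′ on the minus strand, from chr6:129660690-129660806 for Klrc2, chr6:129643338-129643538 for Klrc3 and chr6:129678974-129679223 for Klrc1. Capitals mark runs of at least 20 bases that also occur in the window of another of these genes.
Klrc2: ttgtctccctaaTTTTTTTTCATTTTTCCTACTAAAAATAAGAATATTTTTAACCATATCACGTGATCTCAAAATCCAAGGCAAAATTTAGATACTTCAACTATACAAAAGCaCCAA
Klrc3: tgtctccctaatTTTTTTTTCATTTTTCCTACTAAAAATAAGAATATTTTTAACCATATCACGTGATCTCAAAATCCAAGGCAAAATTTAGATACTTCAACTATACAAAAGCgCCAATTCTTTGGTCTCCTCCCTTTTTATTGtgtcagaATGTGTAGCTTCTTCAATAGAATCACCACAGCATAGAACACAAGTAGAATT
Klrc1: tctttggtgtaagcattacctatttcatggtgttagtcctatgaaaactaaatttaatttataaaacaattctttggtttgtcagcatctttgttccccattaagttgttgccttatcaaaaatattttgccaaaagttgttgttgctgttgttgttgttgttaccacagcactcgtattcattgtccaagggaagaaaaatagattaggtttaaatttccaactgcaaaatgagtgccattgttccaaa
Of the bases shown, 104 of 117 in Klrc2, 181 of 201 in Klrc3 and 0 of 250 in Klrc1 lie in such runs.

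Levels are given as CPM, the usual scaling of a gene's count to the size of its library, on library sizes scaled by TMM over all libraries. A library had from 13287163 to 18875033 reads on genes. The markers of NK cells (Ncr1, Klrb1c, Eomes, Tbx21, Itga2, Prf1, Gzmb and Il2rb) had means over 5 CPM in every group, and their sum lay between 12647 and 20874 CPM. The myeloid list summed to between 0.172 and 374 CPM and the T cell list to between 200 and 435 CPM. Cd4 and Cd8a, which define T cell subsets, were at 0 in at least 5 libraries of each group, whereas Cd3g and Cd28 were counted in every library. The stroma, endothelium and epithelium list lay between 138 and 501 CPM except in WT NKG2A+ cells, where it reached 1089 CPM, largely from Prl8a2 at 881 CPM in library 4. WT uneducated library 5 and WT NKG2A+ library 9 had counts for the fewest genes of their groups (13990 and 13982).

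Klrc1 separated the NKG2A+ libraries from all others, as the sort on its protein sets. In WT NKG2A+ cells it lay between 495 and 753 CPM (median 579, n = 9). In WT uneducated cells it lay between 1.26 and 13.9 CPM (median 3.16, n = 9), and library 1, with 236 reads, stood apart from the next highest at 5.89 CPM. It lay between 1.28 and 7.80 CPM (median 1.84, n = 6) in WT Ly49C/I+ cells. NKG2A+ over uneducated cells gave a log2 fold change of 7.15 (adjusted p = 2.14e-11 by edgeR's quasi-likelihood test, standard error 0.369), ranking 1 of 9339 genes. The antibody listed for the sort binds NKG2A, NKG2C and NKG2E, so that all Klrc genes are a check of the gate in comparisons with NKG2A+ cells, and Klrd1 and Klrk1 are the genes it did not use. The NKG2A-negative populations were gated with it too, so the gate also bears on Klrc2 and Klrc3 in comparisons among them.

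In NKG2A KO mice, Klrc1 reads were still counted at the low level of the NKG2A-negative WT cells. KO uneducated cells had between 0.781 and 3.13 CPM (median 2.14, n = 8), from 13 to 56 reads a library. The 5 KO Ly49C/I+ libraries had 1.79, 2.49, 3.38, 3.51 and 3.82 CPM. KO and WT libraries overlapped in each population. The difference in mean log2(CPM + 1) between KO and WT was -0.52 in uneducated cells (two-sided exact permutation test, p = 0.134, unadjusted) and 0.14 in Ly49C/I+ cells (p = 0.727 by the same exact test). WT cells of these populations were gated as NKG2A negative and the counts cover the whole gene, so Klrc1 does not check the genotype labels here.

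**Figure D1:**
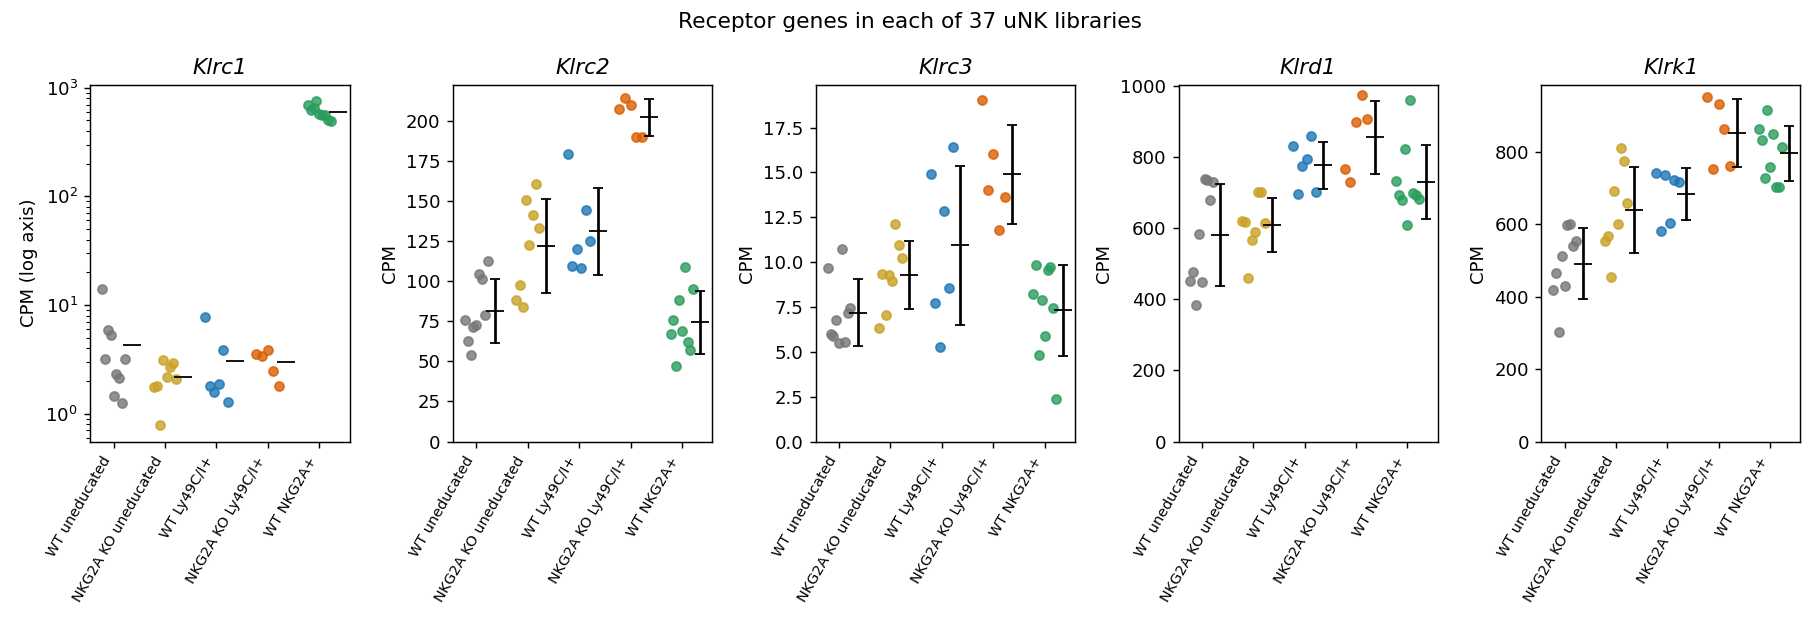
Level of each receptor gene in CPM (y axis; log axis for Klrc1, linear axes from 0 for the others) in the 37 libraries, by group on the x axis. Points are libraries, black dashes are group means and bars are ± SD (not drawn for Klrc1). Klrc1 is high only in the 9 WT NKG2A+ libraries, and the 5 NKG2A KO Ly49C/I+ libraries have the highest Klrc2, from 189.6 to 214 CPM.

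Where Klrc1 was low, the NKG2 reads were mostly those of Klrc2, which encodes the activating chain NKG2C. These shares are of reads, not divided by transcript length, and a longer gene takes more reads. Annotated exons cover 5812 bases in Klrc2, 1984 in Klrc1 and 736 in Klrc3. Klrc2 took 87.3% ± 5.35 (SD, n = 9) of the reads on the 3 Klrc genes in WT uneducated cells, 90.5% ± 2.80 (SD, n = 6) in WT Ly49C/I+ cells, 91.4% ± 0.849 (SD, n = 8) in KO uneducated cells and 91.9% ± 1.13 (SD, n = 5) in KO Ly49C/I+ cells. In WT NKG2A+ cells, Klrc1 took 88.0% ± 3.10 (SD, n = 9) and Klrc2 the next largest share, 11.0% ± 3.11 (SD, n = 9). Klrc3 was the smallest share there, at 1.07% ± 0.377 (SD, n = 9).

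**Figure D2:**
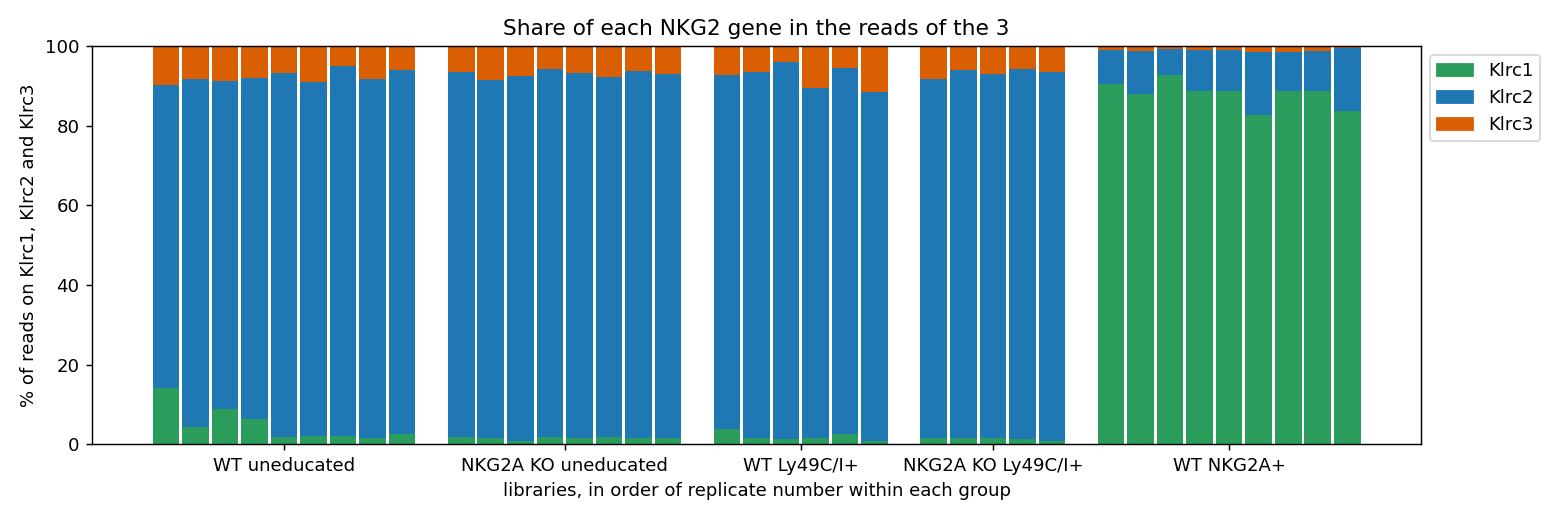
Share of Klrc1, Klrc2 and Klrc3 in the reads counted on these 3 genes (y axis, %), 1 bar per library, grouped on the x axis. Klrc1 makes up 82.7% to 92.6% in the WT NKG2A+ libraries and at most 14.0% in any other library, where Klrc2 makes up at least 76.2%.

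Apart from the shares of reads above, levels of different genes were compared per kb, first of the longest coding transcript. In WT uneducated cells, Klrd1 was at 632 ± 156 CPM per kb (SD, n = 9), Klrk1 at 154 ± 30.4, Klrc2 at 29.0 ± 7.12 and Klrc3 at 10.1 ± 2.61. In WT NKG2A+ cells, Klrd1 was at 794 ± 112 CPM per kb (SD, n = 9), Klrc1 at 304 ± 43.9 and Klrk1 at 249 ± 24.0. Klrd1 had the highest level per kb of the 5 genes in both populations. Over all annotated exons in place of the longest coding transcript, Klrk1 in NKG2A+ cells came to 111 ± 10.7 and Klrd1 to 570 ± 80.3 CPM per kb, with Klrd1 again the highest. On that measure Klrc2 and Klrc3 lay much closer than their shares of reads. They were at 14.0 ± 3.44 and 9.77 ± 2.53 in WT uneducated cells, and at 12.8 ± 3.38 and 9.93 ± 3.43 in WT NKG2A+ cells.

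Klrk1 (NKG2D) was higher in NKG2A+ than in uneducated WT cells, and the libraries did not overlap. It lay between 302 and 601 CPM (median 513, n = 9) in uneducated cells and between 702 and 917 CPM (median 814, n = 9) in NKG2A+ cells. Every NKG2A+ library was above every uneducated library. Klrk1 had a log2 fold change of 0.71 (standard error 0.105, 95% interval 0.49 to 0.92, adjusted p = 9.41e-05, edgeR quasi-likelihood test), a 1.63-fold difference. The 5 NKG2A+ libraries with Prl8a2 under 10 CPM had Klrk1 between 702 and 849 CPM. Any subset of NKG2A+ libraries lies above the uneducated ones, and the part of stromal RNA in the result was not tested. In bulk samples, a change in the share of cells that express a gene and a change in RNA per cell cannot be told apart.

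Klrd1 (CD94), the partner of NKG2A, did not pass the threshold in NKG2A+ cells in the main test, which took libraries as unpaired. It lay between 383 and 739 CPM (median 583, n = 9) in uneducated cells and between 608 and 960 CPM (median 695, n = 9) in NKG2A+ cells. Of the NKG2A+ libraries, 2 of 9 were above all uneducated ones. The log2 fold change was 0.34 (95% interval 0.08 to 0.60, adjusted p = 0.0685, edgeR quasi-likelihood test). Klrd1 passed with DESeq2 (adjusted p = 0.0410), all 37 libraries in 1 fit (adjusted p = 0.0210, edgeR) and a replicate block (adjusted p = 0.0243, edgeR). It did not pass with the likelihood ratio test, RLE scaling, other filters or the offsets. Among the activating chains, Klrc2 had 74.3 ± 19.6 CPM (SD, n = 9) in the NKG2A+ libraries, beside 81.4 ± 20.0 CPM (SD, n = 9) in the uneducated ones, a log2 fold change of -0.12 (95% interval -0.46 to 0.21, adjusted p = 0.666). Klrc3 was at 7.31 ± 2.52 CPM against 7.19 ± 1.86 CPM, a log2 fold change of 0.03 (adjusted p = 0.956). The test thus called 2 of 5 genes, Klrc1 and Klrk1, both higher, where 15% of all genes tested were called, 7.47% higher and 7.56% lower. The call of Klrc1 follows from the sort. Of Klrd1 and Klrk1, which the sort did not use, only Klrk1 was called.

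Genes of the NK, T cell, ILC1-associated and stroma, endothelium and epithelium lists also differed between these groups, some higher and some lower. Of the 8 NK markers, Tbx21, Itga2, Klrb1c and Ncr1 were higher and Gzmb and Prf1 lower in NKG2A+ cells, and of the stroma, endothelium and epithelium list, Pecam1 and Epcam were lower. Ncr1, which encodes NKp46, was at 608 ± 61.3 CPM (SD, n = 9) in uneducated and 939 ± 49.1 CPM (SD, n = 9) in NKG2A+ cells. Of 10 T cell genes, 5 were tested, and Cd3d and Cd3e were higher in NKG2A+ cells. The T cell list summed to between 200 and 327 CPM in uneducated and between 250 and 435 CPM in NKG2A+ libraries. Of 6 ILC1-associated genes, Il7r, Cd200r1 and Cxcr6 were higher and Itga1 was lower, and the list summed to between 203 and 403 CPM in uneducated and between 237 and 503 CPM in NKG2A+ libraries. No ILC1-associated gene was at 0 in a whole group. Their part in the result for Klrk1 was not tested. Without the libraries numbered 5 of both groups, the log2 fold change of Klrk1 was 0.70 (adjusted p = 0.000305, edgeR).

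Ly49C/I+ cells of WT mice had more Klrc2 and Klrk1 RNA than uneducated cells. Both populations were gated as negative with the antibody that also binds NKG2C and NKG2E, and Klrc2 RNA is not a measure of NKG2C on the surface. The 9 uneducated libraries are those of the comparison with NKG2A+ cells, so the results share their controls. Klrc2 lay between 54.2 and 112 CPM (median 75.5, n = 9) in uneducated cells and between 108 and 179 CPM (median 122, n = 6) in Ly49C/I+ cells, and 4 of 6 Ly49C/I+ libraries were above all uneducated ones. Its log2 fold change was 0.70 (standard error 0.157, 95% interval 0.37 to 1.03, adjusted p = 0.0101, edgeR quasi-likelihood test). Klrk1 lay between 583 and 742 CPM (median 720, n = 6) in Ly49C/I+ cells, and 5 of 6 libraries were above all uneducated ones. Klrk1 was higher by 0.50 on the log2 scale (standard error 0.122, adjusted p = 0.0178), a call that was lost without a filter on low counts (adjusted p = 0.0571) and with GC content and length as offsets (adjusted p = 0.0585).

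The other receptor genes did not pass in the main test of this comparison, which took libraries as unpaired. Klrd1 lay between 697 and 860 CPM (median 784, n = 6) in Ly49C/I+ cells, and 4 of 6 libraries were above all uneducated ones. The log2 fold change of Klrd1 was 0.44 (95% interval 0.15 to 0.73, adjusted p = 0.0506, edgeR quasi-likelihood test). It passed with DESeq2 (adjusted p = 0.0190), edgeR's likelihood ratio test (0.0259), all 37 libraries in 1 fit (0.00790, edgeR) and a replicate block (0.0244, edgeR). It did not pass with RLE scaling, other filters or the offsets alone. Klrc3 lay between 5.24 and 16.4 CPM (median 10.7, n = 6) against 5.49 to 10.7 CPM (median 6.80, n = 9), a log2 fold change of 0.63 (adjusted p = 0.197). Klrc1 was below the filter, and its mean log2(CPM + 1) differed by -0.31 (two-sided exact permutation test, p = 0.482, unadjusted). The sum of the Klrc genes was higher by 0.66 on the log2 scale (adjusted p = 0.0105, edgeR). Of the 4 genes tested, 2 were called, both higher, where 9.2% of all genes tested were called, 4.5% higher and 4.7% lower. Of the NK markers, Tbx21 and Ncr1 were higher and Gzmb and Prf1 lower in Ly49C/I+ cells, and no tested T cell or ILC1-associated gene passed. Pecam1 and Epcam were lower. Their part in these results was not tested.

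The same comparison in NKG2A KO mice called all 4 genes tested as higher in Ly49C/I+ cells, where 16.3% of all genes were called, 7.34% higher and 8.99% lower. Klrc2 was at 190, 190, 207, 210 and 214 CPM in the 5 KO Ly49C/I+ libraries and between 83.8 and 161 CPM (median 128, n = 8) in KO uneducated cells. The groups did not overlap, and Klrc2 had a log2 fold change of 0.73 (adjusted p = 0.00293 by edgeR's quasi-likelihood test, standard error 0.143). Klrd1 was at 731, 765, 899.7, 908 and 973 CPM against 460.1 to 702 CPM (median 616, n = 8). These groups did not overlap either, and the log2 fold change of Klrd1 was 0.50 (standard error 0.0961, adjusted p = 0.00288). With a replicate block and offsets for GC content and length together, Klrc2 (0.33, adjusted p = 0.144, edgeR) and Klrd1 (0.26, adjusted p = 0.0543, edgeR) were lost. Both calls held with the block or the offsets alone.

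Klrk1 and Klrc3 overlapped more between the KO populations. Klrk1 was at 754, 761, 865, 934 and 953 CPM in KO Ly49C/I+ cells against 454 to 810.5 CPM (median 630, n = 8) in KO uneducated cells, with 3 of 5 libraries above all uneducated ones. Its log2 fold change was 0.42 (adjusted p = 0.0218 by edgeR's quasi-likelihood test, standard error 0.117), and 0.17 with GC content and length as offsets (adjusted p = 0.437). Klrc3 was at 11.8, 13.6, 14.0, 16.0 and 19.0 CPM against 6.35 to 12.1 CPM (median 9.31, n = 8), a log2 fold change of 0.69 (adjusted p = 0.0495) that was lost when any 1 of 12 of the 13 libraries was left out. Klrc1, below the filter, differed by 0.35 in mean log2(CPM + 1) (two-sided exact permutation test, p = 0.127, unadjusted). Of the markers, Tbx21, Itga2, Klrb1c, Ncr1 and Tnfsf10 were higher and Gzmb, Prf1 and Epcam lower in KO Ly49C/I+ cells, and their part in these results was not tested.

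The effect of Ly49C/I did not differ detectably between genotypes. The difference of the log2 fold changes, KO minus WT, was 0.04 for Klrc2 (95% interval -0.42 to 0.50), 0.08 for Klrc3 (-0.66 to 0.82), 0.07 for Klrd1 (-0.30 to 0.44) and -0.06 for Klrk1 (-0.42 to 0.30). All had an adjusted p of 0.999 (edgeR quasi-likelihood test), and 0 of 9322 genes (0%) were called, with 407 at an unadjusted p under 0.05. DESeq2 and edgeR's likelihood ratio test each called 1 gene, Elmod2, which was named after its values were seen. The Ly49C/I+ effect averaged over genotypes, a contrast chosen after the data were seen, was 0.71 for Klrc2, 0.65 for Klrc3, 0.46 for Klrd1 and 0.45 for Klrk1 (adjusted p = 2.18e-05, 0.00677, 0.000270 and 0.000317, edgeR), where 27.6% of all genes were called. That fit takes libraries as independent, though same-numbered ones may share mice. Klrc3 was lost with a replicate block (0.57, adjusted p = 0.0696, edgeR). Klrk1 was lost with the block and offsets for GC content and length together (0.20, adjusted p = 0.0506, edgeR).

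NKG2A+ and Ly49C/I+ cells of WT mice were then compared directly. Klrc2 was lower in NKG2A+ cells, which lay between 47.3 and 109 CPM (median 68.7, n = 9), with 8 of 9 libraries below every Ly49C/I+ library. The log2 fold change of Klrc2 was -0.83 (standard error 0.162, 95% interval -1.17 to -0.49, adjusted p = 0.00968, edgeR quasi-likelihood test). Klrk1 differed by 0.21 (95% interval 0.05 to 0.37, adjusted p = 0.136), Klrd1 by -0.10 (-0.28 to 0.08, adjusted p = 0.570) and Klrc3 by -0.59 (-1.28 to 0.09, adjusted p = 0.357), none of which passed. With Klrc1 (log2 fold change 7.63, adjusted p = 2.14e-11), 2 of 5 genes were called, where 2.73% of all genes were called, 1.31% higher and 1.42% lower. Both are Klrc genes, which the sort antibody bears on.

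**Figure D3:**
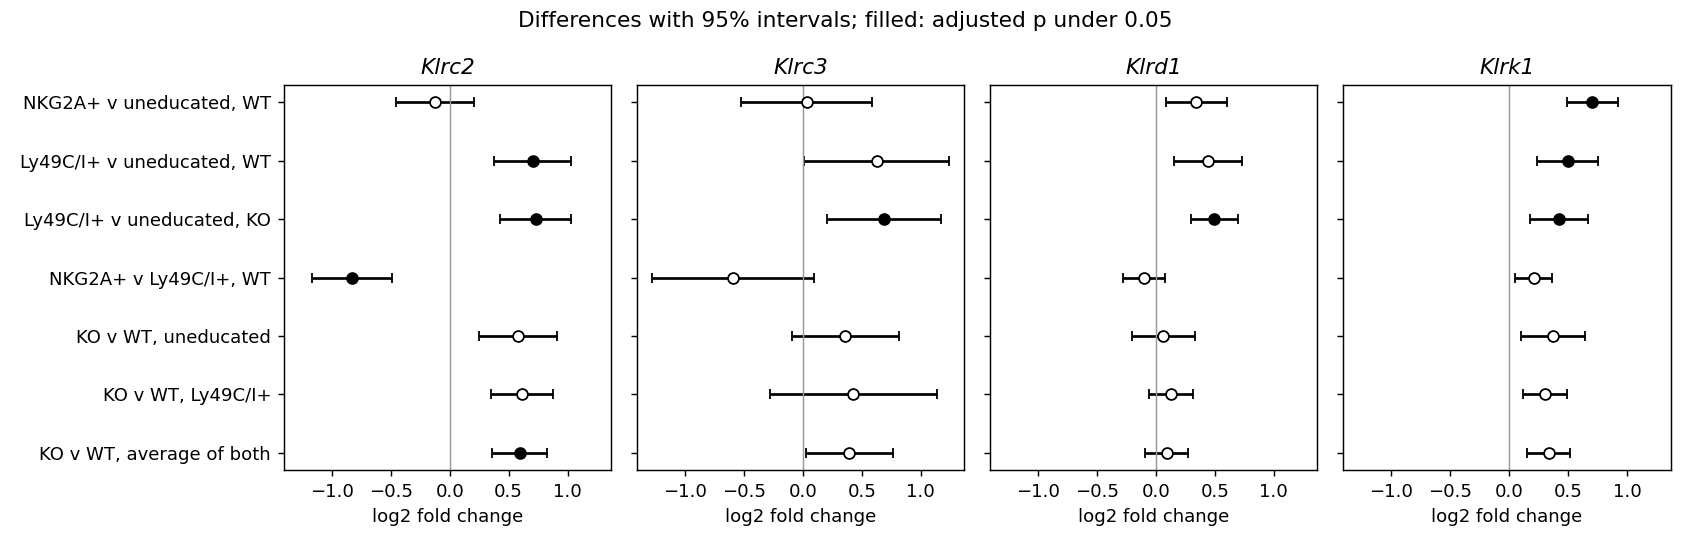
Log2 fold changes (x axis) of Klrc2, Klrc3, Klrd1 and Klrk1 in each comparison (y axis), with 95% intervals from edgeR. Filled points have an adjusted p under 0.05. Klrk1 has its highest value, 0.71, in NKG2A+ over uneducated cells, and Klrc2 is filled at -0.83 between NKG2A+ and Ly49C/I+ cells and at 0.59 in KO over WT averaged over both populations.

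KO and WT mice were compared within each sorted population. The NKG2A-negative gate took NKG2A+ cells out of the WT populations. In KO mice, cells that would otherwise carry NKG2A cannot be gated out through NKG2A itself. The antibody listed also binds NKG2C and NKG2E, so such cells could still be gated out through these. The gate thus bears on Klrc2 and Klrc3 in both genotypes. The KO and WT populations may therefore hold different cells, and the part of this in the results was not tested. In uneducated cells, Klrc2 lay between 83.8 and 161 CPM in KO mice and between 54.2 and 112 CPM in WT mice, and 5 of 8 KO libraries were above all WT ones. Its log2 fold change was 0.58 (standard error 0.159, 95% interval 0.25 to 0.91), with an unadjusted p of 0.00152 and an adjusted p of 0.507 (edgeR). Among the Ly49C/I+ libraries, all 5 KO libraries were above all 6 WT libraries, with a log2 fold change of 0.61 (standard error 0.124, 95% interval 0.35 to 0.88, unadjusted p = 0.000194, adjusted p = 0.137, edgeR). Neither passed, as no gene did (0% in both). At an unadjusted p under 0.05 there were 619 of 9288 genes in uneducated and 992 of 9344 in Ly49C/I+ cells. DESeq2 called 1 gene (Klrb1b, named after its values were seen) and 118 genes, and Klrc2 was called by DESeq2 in Ly49C/I+ cells (adjusted p = 0.00209) and without WT Ly49C/I+ library 1 (adjusted p = 0.0129, edgeR).

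Averaged over both populations, Klrc2 was higher in KO than in WT mice. This contrast of 28 libraries was chosen after the data were seen. It treats uneducated and Ly49C/I+ libraries as independent, though same-numbered ones may share mice, so its p-values may be too small. No replicate block was run for it. Klrc2 had a log2 fold change of 0.59 (standard error 0.112, 95% interval 0.36 to 0.82, adjusted p = 0.00797, edgeR quasi-likelihood test), a 1.51-fold difference that ranked 12 of 9322 genes by p, where 0.654% of genes were called. The call held without each library in turn (adjusted p from 0.00262 to 0.0294) and was lost with GC content and length as offsets (log2 fold change 0.47, adjusted p = 0.0718). The sum of the Klrc genes was higher by 0.55 (adjusted p = 0.0108).

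Klrk1 was also higher in KO mice by value but did not pass in the main test. In Ly49C/I+ cells, its 5 KO libraries (754 to 953 CPM) lay above the 6 WT libraries (583 to 742 CPM), with a log2 fold change of 0.31 (95% interval 0.12 to 0.49, adjusted p = 0.239, edgeR quasi-likelihood test). In uneducated cells the log2 fold change of Klrk1 was 0.37 (95% interval 0.10 to 0.64, adjusted p = 0.582), with 4 of 8 KO libraries above all WT ones. The average over both was 0.34 (95% interval 0.15 to 0.52, adjusted p = 0.0708). With DESeq2, Klrk1 passed in Ly49C/I+ cells (adjusted p = 0.0392) and in the average (adjusted p = 0.0248). The average also passed with edgeR's likelihood ratio test (adjusted p = 0.0279) and all 37 libraries in 1 fit (adjusted p = 0.0309, edgeR). With a replicate block and offsets for GC content and length together, Klrk1 was -0.022 in Ly49C/I+ cells. Klrc3 had 0.36 in uneducated and 0.43 in Ly49C/I+ cells (adjusted p = 0.810 and 0.684), and Klrd1 had 0.06 and 0.13 (adjusted p = 0.950 and 0.651). Averaged over both populations, Klrc3 had 0.39 (0.02 to 0.76, adjusted p = 0.339) and Klrd1 0.09 (-0.09 to 0.27, adjusted p = 0.701).

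Klrc2 lies next to the targeted gene, so the position of the called genes was counted. Of the 61 genes called in the averaged contrast, 4 were among the 72 tested genes within 5 Mb of Klrc1 (5.56%) and 57 among the 9250 elsewhere (0.616%), a count given as a description with no test. These 4 were Klrb1b at 0.59, Klrc2 at 0.59, Cd69 at 0.74 and Klrb1a at 0.67 on the log2 scale, all higher in KO mice and all lectin-like proteins of the NK gene complex. They were named by this count, after their values were seen. Klrc2, which prompted the count, is among the 4, and the window was set after the data were seen. It holds the NK gene complex, so genes elsewhere are not a like background in NK cells. Not given in the sources used here is the strain that the sequence around the KO allele comes from, and its part in the result was not tested. Genotype cannot be told apart from any difference in how KO and WT mice were kept or processed, or in which cells the NKG2A-negative gate left. The T cell list summed to between 268 and 383 CPM in KO and between 200 and 327 CPM in WT uneducated cells, and to between 269 and 359 CPM in KO and between 253 and 370 CPM in WT Ly49C/I+ cells, and its part in the result was not tested.

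Over the 5 groups, the mean level of Klrk1 ran from WT uneducated (492 ± 97.3 CPM, SD, n = 9) through KO uneducated (639 ± 119, n = 8), WT Ly49C/I+ (684 ± 71.4, n = 6) and WT NKG2A+ (796 ± 76.7, n = 9) to KO Ly49C/I+ (853 ± 93.6, n = 5). Of these neighbours, WT uneducated and KO uneducated did not differ past the threshold, nor did WT Ly49C/I+ and WT NKG2A+, and the other neighbours were not tested. Klrc2 had another order, with WT NKG2A+ lowest and then WT uneducated, KO uneducated (122 ± 29.3, n = 8), WT Ly49C/I+ (131 ± 27.1, n = 6) and KO Ly49C/I+ (202 ± 11.5, n = 5). The spread of KO uneducated and WT Ly49C/I+ libraries overlapped. Klrd1 ran from 581 ± 143 (n = 9) in WT uneducated cells and 609 ± 76.99 (n = 8) in KO uneducated cells to 730 ± 102.8 (n = 9) in WT NKG2A+, 777 ± 66.4 (n = 6) in WT Ly49C/I+ and 855 ± 102.8 (n = 5) in KO Ly49C/I+ cells, all neighbours overlapping.

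Of the other genes of these pathways, 31 of 39 listed genes were tested in the comparison of NKG2A+ with uneducated WT cells, 9 of which were higher and 2 lower, where 15% of all genes tested were called, 7.47% higher and 7.56% lower. Their median log2 fold change was 0.19, beside 0.01 over all genes tested. Among the adaptors, Hcst, which encodes DAP10, the adaptor of NKG2D, was higher by 0.45 (adjusted p = 0.0178 by edgeR's quasi-likelihood test, standard error 0.125). Tyrobp, which encodes DAP12, had a value of 0.03 (adjusted p = 0.861). Among signalling genes, the kinases Lck (0.74) and Fyn (0.46), the scaffold Lat (0.73) and the PI3-kinase subunit Pik3r1 (0.66) were higher, whereas the exchange factor Vav3 (-0.53) was lower. The Qa-1 gene H2-T23 was higher by 0.33 (adjusted p = 0.0139). Klre1, which lies in the same gene complex and encodes a lectin-like receptor, was higher by 0.49.

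In Ly49C/I+ cells of WT mice, 5 of the 31 were higher and 1 lower, where 4.5% of all genes were called higher and 4.7% lower (median 0.20, beside 0.01 over all genes). The higher genes were Lck (0.64), Inpp5d (0.58), which encodes the phosphatase SHIP-1, Klre1 (0.55), H2-T23 (0.44) and H2-D1 (0.31), a classical MHC class I gene. The phosphatase gene Ptpn11 (SHP-2) was lower (-0.71). Hcst had a value of 0.44 (adjusted p = 0.0794, edgeR quasi-likelihood test) and Tyrobp one of 0.26 (adjusted p = 0.130). In KO mice, 11 of the 31 were higher and 0 lower, where 7.34% of all genes were called higher and 8.99% lower (median 0.22, beside 0.02). They included Hcst at 0.49 (adjusted p = 0.00291), Lck at 0.49, Klre1 at 0.49, H2-T23 at 0.44, Syk at 0.44, Klri2 at 0.40, Pik3cd at 0.37 and Pik3r1 at 0.36. Tyrobp did not pass there (0.26, adjusted p = 0.0579). Between NKG2A+ and Ly49C/I+ cells, 1 of the 31 passed, Pik3r1 (0.37), where 2.73% of all genes were called. Between KO and WT mice 0 of 31 passed in either population, with medians of 0.11 and 0.13 beside -0.01 and -0.0015 over all genes, and 0 in the difference between genotypes. Of the 9 NKG2D ligand genes listed, only Ulbp1 (MULT-1) was tested, and it passed in none of these comparisons. Its level was 20.2 ± 5.38 CPM (SD, n = 9) in WT uneducated cells.

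**Figure D4:**
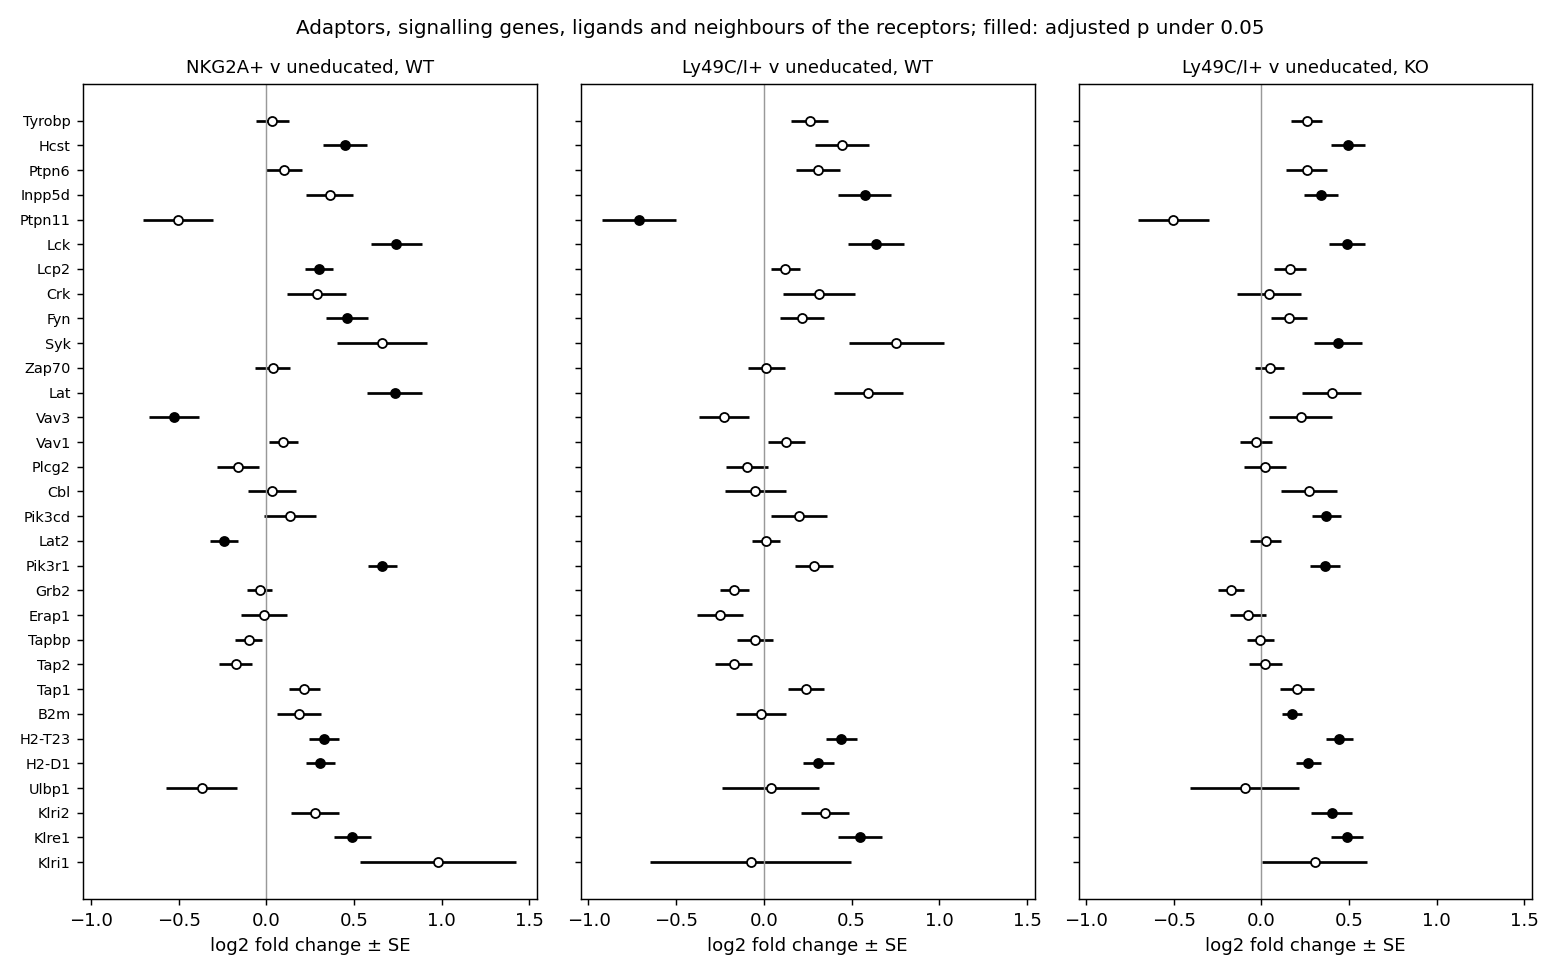
Log2 fold changes (x axis, with standard errors) of the 31 tested adaptor, phosphatase, signalling, ligand and neighbouring receptor genes (y axis) in 3 comparisons with uneducated cells. Filled points have an adjusted p under 0.05. Hcst is filled in NKG2A+ cells of WT mice and Ly49C/I+ cells of KO mice, and Tyrobp in none of the 3.

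Within groups, the level of Klrd1, Klrk1 and Klrc2 varied together from library to library. After the mean of each group was taken away, Pearson's r of log2(CPM + 1) over the 37 libraries was 0.77 between Klrd1 and Klrk1, 0.76 between Klrc2 and Klrk1 and 0.65 between Klrc2 and Klrd1. Klrc1 had values of 0.18, 0.31, -0.13 and 0.03 with Klrc2, Klrc3, Klrd1 and Klrk1. Klrc3 had values of 0.28, 0.24 and 0.28 with Klrc2, Klrd1 and Klrk1. Libraries share depth, scaling and capture of RNA, so these are descriptions with no test. The genes most like each receptor gene by the same measure were Klre1 (0.84), Klra14-ps (0.80) and Ms4a4b (0.79) for Klrd1, Ms4a4b (0.84), Btg1 (0.84) and Klrb1f (0.81) for Klrk1, and Klrb1a (0.81) and Gimap6 (0.81) for Klrc2. Lower values were reached for Klrc1, with Gcfc2 (0.60), Lrrc75a (0.58) and Zdhhc20 (0.55), and for Klrc3, with Manba (0.62), Srpk2 (0.61) and Flywch1 (0.60). Klrc1 and Klrc3 were the receptor genes with the fewest reads in most groups.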

How the data were processed

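RNA-seq libraries of sorted uNK cells were made with SMART-Seq v4 and Nextera XT, with no molecular identifiers. Per the labels, the submitters' processing notes name FastQC 0.11.4, Trim Galore 0.5.0, STAR 2.7.1, edgeR 3.26.5, R 3.6.1 and GRCm38. The authors deposited 1 table of raw read counts per gene for each of 37 libraries. Not given in the sources used here are the counting program and whether it used strand. Counts can be shared among the near-identical Klrc genes, and amplification without molecular identifiers makes reads dependent on each other.

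Groups came from the labels. The tables held 53700 gene identifiers, 52093 of which had a symbol in GENCODE M21, and the 5 summary entries were left out. Reads on genes ranged from 13287163 to 18875033 a library (median 17273311). Between 2.69% and 6.83% were on no gene.

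For each comparison, genes that reached 5 CPM in 0.5 or more of its libraries were scaled by TMM and tested with edgeR 4.0.16 (quasi-likelihood test, R 4.3.3), with Benjamini-Hochberg adjustment over all genes tested and a threshold of 0.05. Klrc1 below the filter was compared on log2(CPM + 1) with a two-sided exact permutation test. Intervals are 95%. Alternatives were DESeq2 1.42.0, edgeR's likelihood ratio test, RLE scaling, other filters, offsets for GC content and length (splines with 5 degrees of freedom), 1 fit of all libraries, a replicate block and leaving out libraries. Genes of the pathway list were named if called, those with the largest changes first and at most 8 a comparison, with Hcst, Tyrobp and H2-T23 in any case. For each receptor gene the 3 genes with the most similar within-group variation were named, except 1 that is not reported here. The list has 39 genes, and Raet1a, Raet1b, Raet1c and H60a had no match. The genes and lists were chosen with earlier results of these data known. Replicate numbers of WT Ly49C/I+ libraries follow the sample descriptions, which differ from their titles, and WT uneducated library 5 was numbered from its title, since its description repeats 4. WT uneducated and NKG2A+ libraries 5 were left out in an alternative because a table of the study leaves them out.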

Additional observations from a re-analysis of the deposited data

Results flagged for a closer look

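Klrc1 in WT uneducated library 1 stood apart at 13.9 CPM, its distance to the next library (5.89 CPM) being large for the range of the group of 9 (Dixon's criterion). This was 1 of 25 gene and group combinations looked at, of which chance marks about 1 in 20. Relative to uneducated cells, the change in NKG2A+ cells differed from that in Ly49C/I+ cells of WT mice, as tested directly with edgeR's quasi-likelihood test, by a log2 fold change of 7.63 for Klrc1 (9 of 9 NKG2A+ libraries above all Ly49C/I+ ones, adjusted p = 2.14e-11) and of -0.83 for Klrc2 (8 of 9 below all Ly49C/I+ ones, adjusted p = 0.00968). The sort antibody bears on both genes.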

How the results depend on the processing

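Of 1173 alternative values for 58 results, 1056 kept their direction and their side of the threshold or, for counts of genes, lay within 1.5 times, 29 fell below the threshold, 26 passed it, 42 counts moved further and 20 changed sign. Causes were not tested.

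With DESeq2, Klrd1 passed in NKG2A+ (0.33) and in Ly49C/I+ (0.44) over uneducated WT cells, and in KO over WT Ly49C/I+ cells Klrc2 (0.61), Klrk1 (0.30) and the Klrc sum (0.59) passed. It called 558 genes between NKG2A+ and Ly49C/I+ cells, 1 and 118 between genotypes in uneducated and Ly49C/I+ cells, 1 for the difference between genotypes and 160 in the averaged genotype contrast, where Klrk1 passed (0.33). The likelihood ratio test called 442, 1, 60, 1 and 129 genes in the same order, and passed Klrd1 in Ly49C/I+ over uneducated WT cells (0.44), Klrc2 in KO over WT Ly49C/I+ cells (0.61) and Klrk1 in the averaged genotype contrast (0.34). With no filter, 451 genes were called in Ly49C/I+ over uneducated WT cells (Klrk1 0.48, lost), 104 between NKG2A+ and Ly49C/I+ cells, 889 in Ly49C/I+ over uneducated KO cells (Klrc3 0.69 and Klrk1 0.42, lost) and 21 in the averaged genotype contrast, which had 40 with filterByExpr. With all 37 libraries in 1 fit, Klrd1 passed in NKG2A+ (0.34) and Ly49C/I+ (0.44) over uneducated WT cells, Klrc3 was lost in KO mice (0.71), Klrk1 passed in the averaged genotype contrast (0.34), and 1538, 21 and 104 genes were called in Ly49C/I+ over uneducated WT cells, KO over WT Ly49C/I+ cells and that contrast.

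With offsets for GC content and length, Klrk1 was lost in Ly49C/I+ over uneducated cells of WT (0.42) and KO mice (0.17) and Klrc2 in the averaged genotype contrast (0.47), which had 39 genes. NKG2A+ against Ly49C/I+ cells had 115. Klrd1 changed sign in KO over WT Ly49C/I+ cells (-0.030), and Klrc2 (-0.084) and Klrd1 (-0.060) did in the difference between genotypes.

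The libraries were not treated as paired, since in no pair of groups was every correlation of same-numbered libraries over 0.1. Within WT, these were -0.0261 to 0.242 for NKG2A+ with uneducated cells, with 6 of 9 libraries best with their own number. They were 0.0733 to 0.189 for Ly49C/I+ with uneducated cells (5 of 6, median 0.126, beside -0.0217 for other numbers). For NKG2A+ with Ly49C/I+ cells they were 0.0346 to 0.111 (6 of 6). Within KO they were 0.0241 to 0.267 (3 of 5). The paper describes sorting 3 populations from suspensions of the pregnant uterus, so pairing within WT is possible by design. It does not state which libraries share a suspension. Fits without the block take libraries as independent, which may be wrong within WT. With the replicate block, Klrd1 passed in NKG2A+ (0.37) and Ly49C/I+ (0.50) over uneducated WT cells, Klrc3 turned to -0.024 in the first, was lost in KO mice (0.52) and was lost in the Ly49C/I+ effect averaged over genotypes (0.57), 748 genes were called in KO mice, and the difference between genotypes was -0.23 for Klrc2, -0.088 for Klrc3 and -0.056 for Klrd1. With the replicate block and the offsets together, Klrc3 was -0.019 in NKG2A+ over uneducated cells and Klrd1 passed in Ly49C/I+ over uneducated WT cells (0.58). Between NKG2A+ and Ly49C/I+ cells, Klrd1 passed at -0.43, Klrk1 was -0.061 and 114 genes were called. In KO over WT Ly49C/I+ cells Klrd1 was -0.095 and Klrk1 -0.022. In Ly49C/I+ over uneducated KO cells 552 genes were called, and Klrc2 (0.33), Klrc3 (0.58), Klrd1 (0.26) and Klrk1 (0.014) were lost. The difference between genotypes was -0.39 for Klrc2, -0.17 for Klrc3 and -0.28 for Klrd1, and Klrk1 was lost in the averaged Ly49C/I+ effect (0.20). It changed no other call.

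Leaving out 1 library at a time gave 1118 to 1687 genes in NKG2A+ over uneducated cells, with Klrc3 from -0.028 to 0.14 and Klrd1 from 0.28 to 0.39, which passed without WT uneducated 6, 7 or 9. In Ly49C/I+ over uneducated WT cells it gave 466 to 1227 genes (539 without WT uneducated 3, 564 and 466 without WT Ly49C/I+ 5 and 7) and Klrd1 from 0.38 to 0.48, which passed without the same libraries. NKG2A+ against Ly49C/I+ cells had 147 to 306 genes (168 and 163 without WT NKG2A+ 2 and 8, 154, 155 and 147 without WT Ly49C/I+ 2, 5 and 7). KO over WT Ly49C/I+ cells had 0 to 15 genes (15 without WT Ly49C/I+ 1, 2 without KO Ly49C/I+ 8) and Klrc2 from 0.57 to 0.72, which passed without WT Ly49C/I+ 1. Ly49C/I+ over uneducated KO cells had 967 to 1763 genes (fewest without KO Ly49C/I+ 4), Klrc3 from 0.59 to 0.75, Klrk1 from 0.36 to 0.48, lost without KO Ly49C/I+ 4, 6 or 7, and a Klrc1 difference from 0.23 to 0.47. The difference between genotypes for Klrc3 ranged from -0.028 to 0.13. The averaged genotype contrast had 22 to 113 genes (38, 113 and 38 without WT uneducated 4, 6 and 8, 34, 40 and 40 without KO uneducated 4, 6 and 7, 30 without WT Ly49C/I+ 2 and 22 without KO Ly49C/I+ 4) and Klrk1 from 0.30 to 0.37, which passed without WT uneducated 6 or KO uneducated 3. Klrc1 and Klrc3 had the fewest reads outside NKG2A+ cells, which limits their precision.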
